A study of Mus musculus with 19 samples.

Results

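The 36 genes described here write, remove or read ADP-ribose on proteins, or encode sirtuins, and were measured in kidney and liver of male mice lacking macroH2A1.1 and of wild-type mice. They were chosen by name, as members of the PARP family, ADP-ribose hydrolases, macrodomain and other ADP-ribose-binding genes, ecto-ADP-ribosyltransferases and sirtuins, from the 26506 genes of the count table. Messenger RNA of whole tissue was sequenced in 5 knockout kidneys (mice 13, 14, 15, 16 and 18), 5 wild-type kidneys (mice 19, 20, 22, 23 and 24), 5 knockout livers (the same 5 numbers) and 4 wild-type livers (mice 19, 20, 22 and 24). The liver of wild-type mouse 23 was not analysed here. The knockout allele lacks the alternative exon that specifies macroH2A1.1. It was made by Cre treatment of zygotes with a floxed exon, homozygous knockouts and wild types were bred from heterozygotes, and the line was backcrossed to C57BL/6J. MacroH2A1.2, the other isoform of the gene, is left in all 4 groups. Standard and ketogenic diets are named for the colony, and no source used here gives the diet or age of each mouse.

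ADP-ribosylation uses NAD as its substrate. PARP enzymes transfer ADP-ribose to proteins, either as long chains, most of them made at DNA breaks, or as single units, and hydrolases of the macrodomain and ARH families take it off again. Reader proteins recognise the mark through zinc fingers, macrodomains or WWE domains, and the macrodomain of macroH2A1.1 is itself such a reader, which binds ADP-ribose at the end of a chain and holds PARP1 in an inactive state. Sirtuins spend the same NAD to remove acetyl and other acyl groups, and in kidney and liver the mitochondrial sirtuins act on enzymes of fuel oxidation and ammonia disposal.

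The targeted gene, H2afy, had fewer reads in the knockouts, in kidney and in liver alike. Its level, in counts scaled to library size after TMM over all libraries (CPM), ran from 36.05 to 44.3 in knockout kidneys and from 48.8 to 67.04 in wild-type kidneys, and from 59.5 to 72.7 in knockout livers and from 73.8 to 121 in wild-type livers. The log2 fold change was -0.58 in kidney (SE 0.0973, adjusted p = 0.135, edgeR quasi-likelihood test with Benjamini-Hochberg adjustment over all genes) and -0.61 in liver (SE 0.13, adjusted p = 0.384). The lowest wild-type value in both tissues came from the library labelled wild-type 24, at 48.8 CPM in kidney and 73.8 CPM in liver, close to the highest knockouts at 44.3 and 72.7 CPM. Without it H2afy passed in both tissues, at -0.65 in kidney (SE 0.08503, edgeR adjusted p = 0.00679) and -0.74 in liver (SE 0.102, edgeR adjusted p = 0.0469). With every mouse kept, it also passed in both with DESeq2 (adjusted p = 9.14e-05 in kidney and 0.0212 in liver). With limma voom it passed in kidney (adjusted p = 0.0358) and not in liver (0.12). In the edgeR fit of all 19 libraries it passed in liver (adjusted p = 0.0416) and not in kidney (0.1). The genotype of mouse 24 was taken from its label. A count over the whole gene cannot show whether the exon is present. Libraries held 25919138 to 35131720 counts in kidney and 26084473 to 34806035 in liver. The tissues carried their own markers: 6 proximal tubule genes summed to 21729 to 27047 CPM in knockout and 25664 to 27441 CPM in wild-type kidneys and to at most 4.69 CPM in any liver, and 6 hepatocyte genes summed to 123116 to 162392 CPM in knockout and 133255 to 137154 CPM in wild-type livers and to at most 1054 CPM in any kidney. Whether each library of a group is a mouse of its own is not stated, and the p-values refer to the spread among these libraries, which may be technical. In whole tissue, fewer cells of a type and less RNA per cell cannot be told apart.

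Of the 36 genes, 35 had enough counts to be tested in every comparison. Adprhl1, a heart-enriched gene of the ARH hydrolase family, was the exception, with 11 counts summed over the knockout kidneys, 18 over the wild-type kidneys, 2 over the knockout livers and 0 over the wild-type livers. Levels between genes are compared as CPM per kb of merged exon. On this scale Macrod1, a mitochondrial macrodomain hydrolase, was the highest member in all 4 groups, at 37.03 in knockout kidneys, 36.1 in wild-type kidneys, 70.8 in knockout livers and 59.5 in wild-type livers. In kidney it was followed by Oard1, which removes ADP-ribose from glutamate (12.5 in knockouts and 13.1 in wild types), and Sirt2, a mainly cytosolic deacetylase of tubulin (11.1 and 11.9 in the same order). In liver it was followed by Sirt3, the main mitochondrial deacetylase (21.5 in knockouts and 20.5 in wild types), and Sirt7, a nucleolar sirtuin (16.99 and 18.02 in the same order). The lowest tested member was Aplf, a histone chaperone that binds ADP-ribose chains at DNA breaks, in kidney (0.566 in knockouts and 0.586 in wild types), and Parp8, a little-studied mono-ADP-ribosyltransferase, in liver (0.136 and 0.153).

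**Figure D1:**
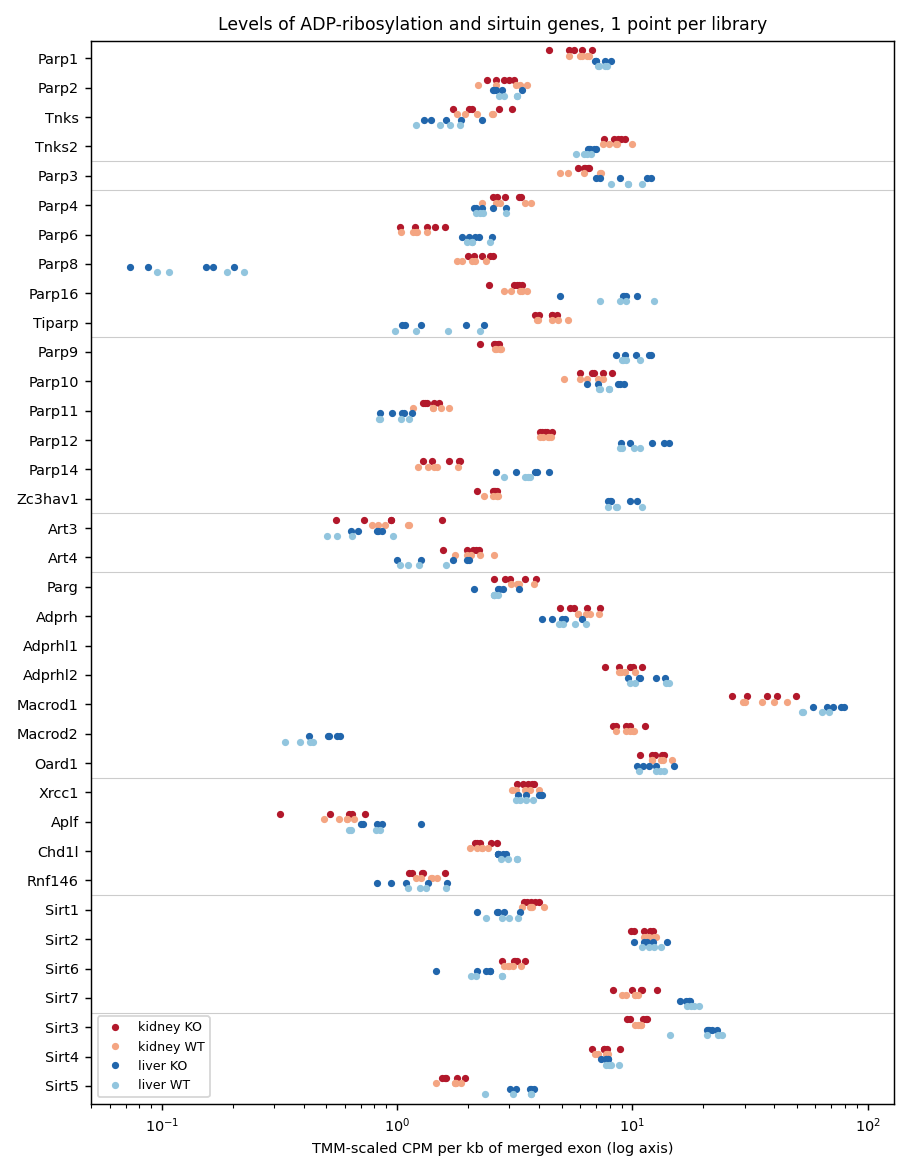
Level of each of the 36 genes on a log axis (TMM-scaled CPM per kb of merged exon), with 1 point per library and genes grouped by role from poly-ADP-ribosylating enzymes at the top to mitochondrial sirtuins at the bottom. Knockout and wild-type points of a tissue lie over each other for every gene shown. Macrod2 and Parp8 lie far to the left in liver, and Parp9, Parp12, Parp16 and Zc3hav1 lie to the right in liver. Adprhl1 is left blank because its values, with a mean of at most 0.0134 in any group, are 0 or lie under the lower end of the axis.

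Macrod2 and Parp8, the members with the largest excess in kidney, and Zc3hav1 and Parp12, interferon-inducible members high in liver, are shown by the 300 bases around their transcription starts (250 before and 50 after, RefSeq, GRCm38.p6). Macrod2, a nuclear and cytosolic macrodomain hydrolase of single ADP-ribose units, is on chromosome 2 (ENSMUSG00000068205, 140395309 to 142392966, plus strand, GRCm38), and its window is chr2:140395180-140395479. Parp8 is on chromosome 13 (ENSMUSG00000021725, 116854820 to 117025537, minus strand), and its window is chr13:117025482-117025781. Both were high in kidney. Zc3hav1, the zinc finger antiviral protein, a PARP family member without catalytic activity that binds viral RNA, is on chromosome 6 (ENSMUSG00000029826, 38305286 to 38354603, minus strand), with the window chr6:38354554-38354853. Parp12, an interferon-inducible mono-ADP-ribosyltransferase of the Golgi, is also on chromosome 6 (ENSMUSG00000038507, 39086410 to 39118349, minus strand), with the window chr6:39118300-39118599. These last were high in liver. Each sequence is given 5′ to 3′ on the gene's strand, with every CG dinucleotide in capitals.
Macrod2: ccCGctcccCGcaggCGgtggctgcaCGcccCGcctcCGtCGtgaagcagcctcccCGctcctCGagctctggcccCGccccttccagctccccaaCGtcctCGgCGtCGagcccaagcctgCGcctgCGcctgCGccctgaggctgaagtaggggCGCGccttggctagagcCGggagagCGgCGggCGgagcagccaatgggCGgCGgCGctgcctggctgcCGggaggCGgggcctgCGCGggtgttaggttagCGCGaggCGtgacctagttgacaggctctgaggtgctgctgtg
Parp8: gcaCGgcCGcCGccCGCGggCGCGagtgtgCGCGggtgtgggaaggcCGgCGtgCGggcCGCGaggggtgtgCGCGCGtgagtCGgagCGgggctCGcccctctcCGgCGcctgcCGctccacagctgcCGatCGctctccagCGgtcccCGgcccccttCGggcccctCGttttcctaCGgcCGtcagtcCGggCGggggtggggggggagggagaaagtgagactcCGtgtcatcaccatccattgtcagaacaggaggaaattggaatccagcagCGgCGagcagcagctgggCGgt
Zc3hav1: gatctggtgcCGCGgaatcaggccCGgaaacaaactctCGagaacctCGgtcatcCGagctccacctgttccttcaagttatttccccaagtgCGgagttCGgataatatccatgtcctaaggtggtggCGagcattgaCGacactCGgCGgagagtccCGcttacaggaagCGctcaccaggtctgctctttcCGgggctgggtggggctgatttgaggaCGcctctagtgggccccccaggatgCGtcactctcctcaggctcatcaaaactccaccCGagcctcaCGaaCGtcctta
Parp12: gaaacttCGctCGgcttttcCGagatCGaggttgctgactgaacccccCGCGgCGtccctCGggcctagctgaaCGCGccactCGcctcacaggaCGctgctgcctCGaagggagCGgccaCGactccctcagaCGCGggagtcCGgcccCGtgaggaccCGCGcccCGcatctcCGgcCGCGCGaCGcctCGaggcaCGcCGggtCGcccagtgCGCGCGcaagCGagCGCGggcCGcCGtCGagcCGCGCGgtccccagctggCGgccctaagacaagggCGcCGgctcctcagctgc
CG, which reads the same on both strands, occurred 33 times in the Macrod2 window, 37 in Parp8, 20 in Zc3hav1 and 46 in Parp12, against a median of 7 over 32851 RefSeq promoters. The share of all promoters with at least as many was 8.6% for Macrod2, 5.6% for Parp8, 26.5% for Zc3hav1 and 1.6% for Parp12. The windows of the genes high in kidney, at 33 and 37, lay between those of the genes high in liver, at 20 and 46. The windows of 31 of the 36 members were available, and those of Parp9, Parp10, Parp14, Tnks and Adprh are named only.

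The core of the interferon-stimulated response element, searched on both strands as TTTC, any 2 bases and TTTC again, was found in 3 of the 31 windows and in 3.44% of all promoters. The 3 members were Parp11, Xrcc1 and Parp4, which has 2 matches. Parp11, an interferon-inducible mono-ADP-ribosyltransferase (ENSMUSG00000037997, chromosome 6, 127446840 to 127494261, plus strand), had a match, while Parp12 and Zc3hav1 had none; the other 3 interferon-inducible members, Parp9, Parp10 and Parp14, had no window to search. Its window, chr6:127446590-127446889, is shown with the match in capitals, which begins 44 bases before the start.
Parp11: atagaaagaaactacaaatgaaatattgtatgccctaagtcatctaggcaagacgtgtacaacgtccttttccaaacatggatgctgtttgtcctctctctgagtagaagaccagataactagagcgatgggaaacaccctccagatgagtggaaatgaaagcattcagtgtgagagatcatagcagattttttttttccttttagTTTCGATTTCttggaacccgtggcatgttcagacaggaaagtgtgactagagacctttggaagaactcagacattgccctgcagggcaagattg
The core of the dioxin response element, GCGTG on both strands, was in 23 of the 31 windows and in 32.4% of all promoters. This core contains CG itself, and CG numbers in the 31 windows ran from 5 in Parp11 to 47 in Sirt1, against a median of 7 over all promoters. The part of CG content in the share was not tested. The windows of Parp16 and Sirt1 lie 19337 and 42669 bases from the annotated gene start. Tiparp, a target and repressor of the aryl hydrocarbon receptor, had 1 match. A match describes the letters and is no evidence of binding.

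In kidney the level of every tested member in knockouts was close to that in wild types. None of the 35 tested members passed the edgeR test at an adjusted p of 0.05, against 1 of 17269 genes or 0.00579%, and none had an unadjusted p under 0.05, against 509 genes or 2.95%. DESeq2 and limma voom also called 0 members. Of the 35 log2 fold changes, 16 were positive and 19 negative, they ran from -0.10 to 0.16, and their median was -0.01, against 0.01 over all genes. The 95% interval of every member lay inside a 1.5-fold change in either direction, and that of 23 members inside 1.25-fold. The lowest interval bound was -0.48 and the highest 0.47, both for Art3, a glycosylphosphatidylinositol-anchored member of the ecto-ADP-ribosyltransferase family. CPM ranges of knockouts and wild types overlapped for all 35 members, while 94 of all genes tested, or 0.544%, had ranges apart.

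Of the enzymes that make chains, Tnks2 had the smallest error in kidney (SE 0.08998) and Tnks the largest (SE 0.148), with a median of 0.103 over the members. Parp1, the main synthase at DNA breaks, held 35.5, 32.3, 28.5, 29.9 and 23.4 CPM in the knockout kidneys and 33.9, 32.4, 31.8, 28.5 and 34.5 CPM in the wild-type kidneys, in the order of mice given above. The highest and the lowest value were both in knockouts, in mice 13 and 18. The log2 fold change was -0.10 (95% interval -0.32 to 0.12). Parp2, its partner at breaks, and the tankyrases Tnks and Tnks2, which mark axin and other proteins for ubiquitylation by Rnf146, had log2 fold changes of -0.09, 0.08 and 0.02. Parp3, a mono-ADP-ribosylating enzyme of double-strand breaks, was at 0.02.

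The smallest unadjusted p-values in kidney belonged to Parp8, Parp10, Parp6 and Sirt2, all with an edgeR adjusted p of 0.999. Parp8 held 22.03, 18.8, 17.7, 22.8 and 20.4 CPM in knockouts and 15.97, 16.8, 21.2, 18.4 and 18.99 CPM in wild types. Knockouts 13 and 16 were above all wild types and the other 3 were inside the wild-type range, with a log2 fold change of 0.16 (SE 0.101, 95% interval -0.05 to 0.38). Parp10, an interferon-inducible mono-ADP-ribosyltransferase, held 25.5, 28.9, 32.2, 29.3 and 35.1 CPM in knockouts and 31.97, 27.3, 30.4, 25.6 and 21.8 CPM in wild types. Its log2 fold change was 0.15 (95% interval -0.09 to 0.39), with knockout 18 highest and the library labelled wild-type 24 lowest. A share of 4.8% of Parp10 exon bases is also exon of Plec on the same strand. Parp6, a mono-ADP-ribosyltransferase studied mainly in neurons, held 7.99, 10.4, 11.3, 9.197 and 12.4 CPM in knockouts and 8.02, 10.4, 9.37, 9.43 and 9.02 CPM in wild types, a difference of 0.16 (95% interval -0.11 to 0.42) in which knockout 13 was below every wild type and knockouts 15 and 18 were above. Sirt2 held 56.2, 59.8, 51.3, 61.6 and 49.7 CPM in knockouts and 59.4, 56.6, 62.1, 63.2 and 57.5 CPM in wild types. Knockouts 13, 15 and 18 were below every wild type and knockouts 14 and 16 inside their range, with a log2 fold change of -0.09 (95% interval -0.26 to 0.07).

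Among the erasers in kidney, Macrod2 held 116, 87.8, 96.5, 101 and 85.3 CPM in knockouts and 100.2, 104, 96.9, 88.1 and 104 CPM in wild types, and the groups overlapped nearly completely (log2 fold change -0.01, 95% interval -0.21 to 0.18). Macrod1 averaged 45.5 ± 11.03 CPM in knockouts and 44.4 ± 8.27 CPM in wild types (SD, n = 5 each). Parg, which cuts ADP-ribose chains, Adprh, which frees arginine, Adprhl2, which frees serine, and Oard1 had log2 fold changes of -0.07, -0.10, 0.04 and -0.07. The readers Xrcc1, a scaffold of single-strand break repair, Aplf, Chd1l, a chromatin remodeller switched on by ADP-ribose chains, and Rnf146 ran from -0.06 to 0.07. Rnf146 counts are uncertain, since 76.8% of its exon bases lie under exons of Echdc1 or Gm30698 on the opposite strand, and no source used here gives the strand setting. Sirtuins stayed within 0.10 of 0 in either direction. Sirt1, the nuclear deacetylase, held 19.8, 18.5, 20.5, 21.3 and 18.99 CPM in knockouts and 18.1, 19.6, 19.9, 22.5 and 19.7 CPM in wild types, and Sirt3 averaged 63.7 ± 5.68 CPM in knockouts and 63.8 ± 1.56 CPM in wild types (SD, n = 5 each). The sign of such values near 0 is without weight, and both turned under other settings.

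**Figure D2:**
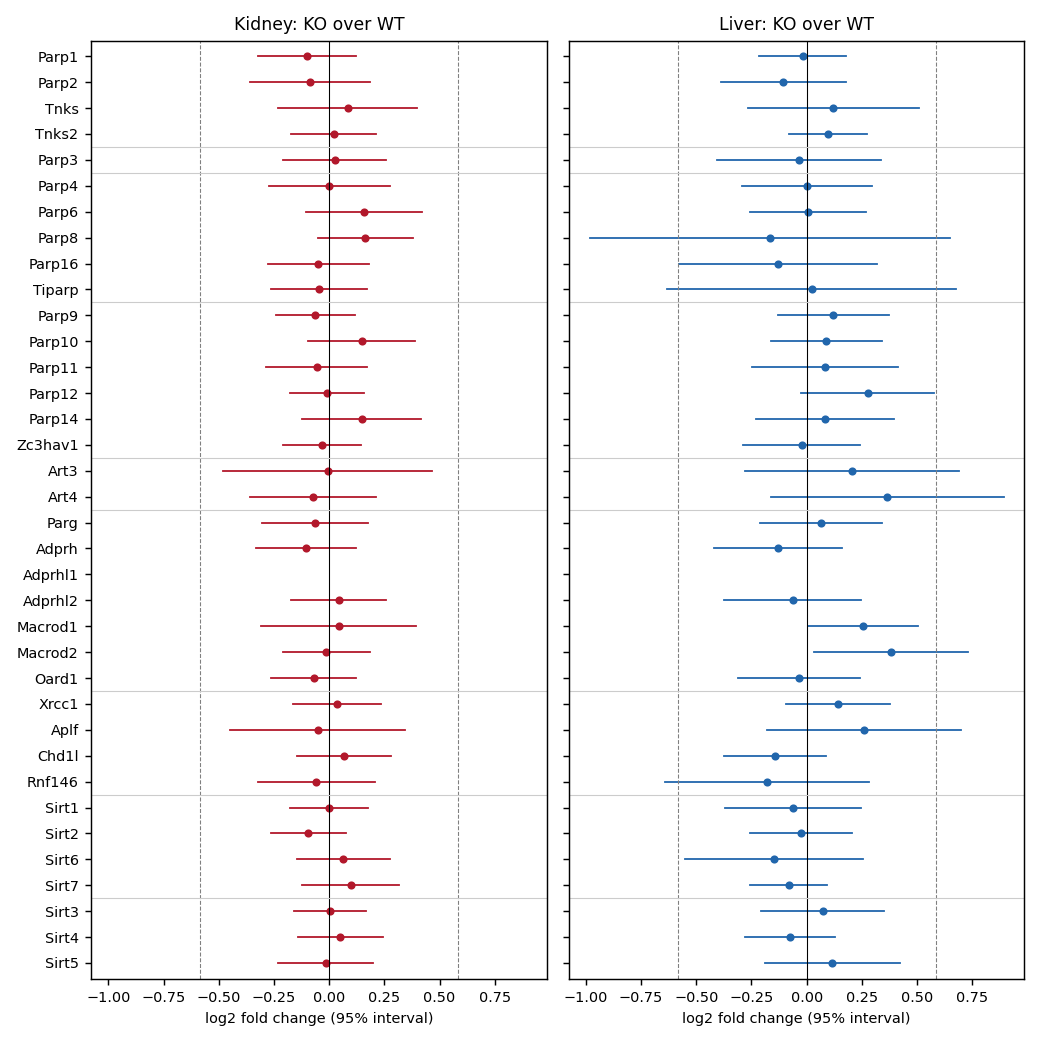
Log2 fold change of knockout over wild type with its 95% interval for each of 35 genes in kidney (left) and liver (right), with dashed lines at a 1.5-fold change in either direction. All 35 intervals lie between the dashed lines in kidney and 28 in liver, where Macrod2 and Macrod1 are the intervals that do not reach 0.

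In liver no member passed the test either, and the intervals were wider. The edgeR test called 0 of 35 members and 0 of 14591 genes, or 0%. At an unadjusted p under 0.05 there were 2 members, the macrodomain hydrolases Macrod2 and Macrod1, against 609 genes or 4.17%. DESeq2 called 42 genes and limma voom 5, with 0 members in each. Of the 35 log2 fold changes 19 were positive and 16 negative, from -0.18 to 0.38, with a median of 0.01, against 0.00 over all genes. The 95% interval lay inside 1.5-fold for 28 members and inside 2-fold for all 35. The 7 that crossed 1.5-fold were Macrod2, Art4, Aplf, Art3, Rnf146, Parp8 and Tiparp. CPM ranges of the groups overlapped for all 35, against 236 genes or 1.62% with ranges apart.

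Macrod2 was low in liver and somewhat higher in knockouts. It held 5.24, 4.34, 5.73, 5.302 and 5.87 CPM in knockout livers and 4.51, 3.99, 3.43 and 4.37 CPM in wild-type livers, in the order of mice given above. Knockout 14 was inside the wild-type range and the other 4 were above it. The log2 fold change was 0.38 (SE 0.161, 95% interval 0.03 to 0.73), a 1.30-fold difference (edgeR quasi-likelihood test, adjusted p = 1). Scaled to library totals in place of TMM, the ranges no longer overlapped: knockouts were at 3.85, 3.30, 4.08, 3.83 and 3.91 and wild types at 3.23, 2.87, 2.49 and 3.14. The nearest values of the groups were thus 3.30 and 3.23, where counting error was 9.11% in knockouts and 10.6% in wild types. Ranges of all genes were not counted under library totals, so this parting has no background.

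Macrod1 (ENSMUSG00000036278, chromosome 19, 7056810 to 7198057, plus strand, GRCm38) held 71.9, 82.8, 94.6, 87.5 and 97.9 CPM in knockout livers and 78.5, 84.3, 65.02 and 64.5 CPM in wild-type livers. Knockouts 15, 16 and 18 were above every wild type, while knockouts 13 and 14 were inside their range, whose low end was the library labelled wild-type 24. Its log2 fold change was 0.25 (SE 0.114, 95% interval 0.01 to 0.50, edgeR adjusted p = 1), and 0.20 without that library (SE 0.121). Macrod1 is abundant in muscle, and 6 of 6 tested skeletal muscle markers had a positive log2 fold change in knockout livers, with a median of 2.09 and none called. Their 7-gene sum was 20.7, 1.701, 9.04, 6.39 and 12.3 CPM in knockouts and 3.19, 3.05, 1.71 and 3.89 CPM in wild types, and Myh1 was at 0 in at least 1 liver of each group. Knockout 13, with the largest sum, held the lowest Macrod1 of the knockouts, while in knockouts 14, 16, 15 and 18 both values rose in that order. The library labelled wild-type 24 had the largest sum and the lowest Macrod1 of the wild types. The part of muscle RNA in the difference was not tested.

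**Figure D3:**
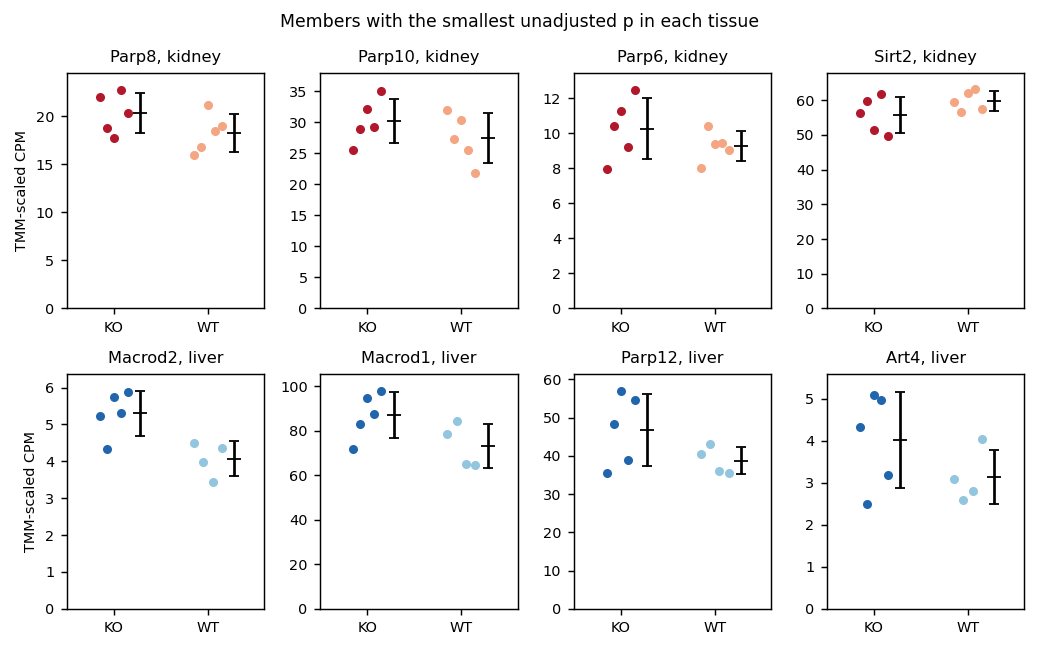
TMM-scaled CPM of the 4 members with the smallest unadjusted p in kidney (top) and in liver (bottom), with 1 point per library, knockouts left and wild types right, and the mean with its SD as a bar. In all 8 panels the points of the groups overlap; the clearest offset is that of Macrod2 in liver, where 4 of 5 knockouts lie above the 4 wild types.

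Parp12 and Art4 followed. Parp12 held 35.6, 48.2, 56.9, 38.8 and 54.7 CPM in knockout livers and 40.4, 43.03, 36.05 and 35.5 CPM in wild-type livers. Knockouts 14, 15 and 18 exceeded every wild type, whereas knockouts 13 and 16 were inside their range, and the log2 fold change was 0.28 (SE 0.139, 95% interval -0.03 to 0.58, edgeR adjusted p = 1), or 0.24 without the library labelled wild-type 24, the lowest of all livers. Art4, a glycosylphosphatidylinositol-anchored ecto-ADP-ribosyltransferase family member that carries the Dombrock blood group antigen in humans, held 4.34, 2.51, 5.09, 4.98 and 3.18 CPM in knockouts and 3.104, 2.58, 2.802 and 4.05 CPM in wild types. The knockouts spread on both sides of the wild types, with 3 above all of them and knockout 14 below all of them, and the log2 fold change was 0.37 (SE 0.243, 95% interval -0.16 to 0.89).

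Of the 6 interferon-inducible members, Parp10, Parp11, Parp12 and Parp14 were highest in the liver of knockout 15 and Parp9 in that of knockout 18. Their log2 fold changes were positive, that of Zc3hav1 was negative, the median of the 6 was 0.09, and 0 were called. Parp9, which forms a complex with the ubiquitin ligase Dtx3l and shares 9.4% of its exon bases with that gene on the opposite strand, held 45.3, 50.4, 57.5, 41.4 and 58.6 CPM in knockouts and 43.8, 44.5, 52.3 and 45.7 CPM in wild types (log2 fold change 0.12). Parp14, a mono-ADP-ribosyltransferase and partner of the transcription factor STAT6, held 29.8, 36.4, 40.9, 24.4 and 35.9 CPM in knockouts and 32.7, 26.4, 33.5 and 33.98 CPM in wild types (0.08). Both were lowest in knockout 16. Parp10 held 30.5, 37.8, 39.5, 27.5 and 37.2 CPM in knockouts and 31.1, 33.8, 34.1 and 30.8 CPM in wild types (0.09). Parp11 held 6.65, 7.52, 8.16, 5.94 and 7.39 CPM in knockouts and 5.96, 7.27, 7.86 and 5.87 CPM in wild types (0.08). Zc3hav1 held 52.8, 63.9, 68.03, 52.3 and 51.1 CPM in knockouts and 71.8, 55.9, 55.6 and 51.2 CPM in wild types (-0.02), and its highest value was in wild-type 19.

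A list of 30 other interferon response genes was summed in each liver for comparison. It reached 894, 1039, 1425, 1017 and 1455 CPM in knockouts and 1039, 985, 981 and 1017 CPM in wild types. Knockouts 15 and 18 stood above the rest, and the other 3 knockouts were near the wild types. In the test 26 of the 30 had a positive and 4 a negative log2 fold change, with a median of 0.27 against 0.00 over all genes, and 0 were called. The smallest p was that of Irf7, a transcription factor of the response, which was at 0.73 (SE 0.215, edgeR adjusted p = 0.885), followed by Ifi44 at 0.94 (SE 0.315, adjusted p = 1). In kidney 23 were positive and 7 negative with a median of 0.06 and 0 called. The 5 macrophage and Kupffer cell markers, all with negative log2 fold changes in liver (median -0.20, 0 called), summed to 198 to 286 CPM in knockouts and 233 to 321 CPM in wild types, and none was at 0 in a liver. Their part in the interferon-inducible values was not tested.

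**Figure D4:**
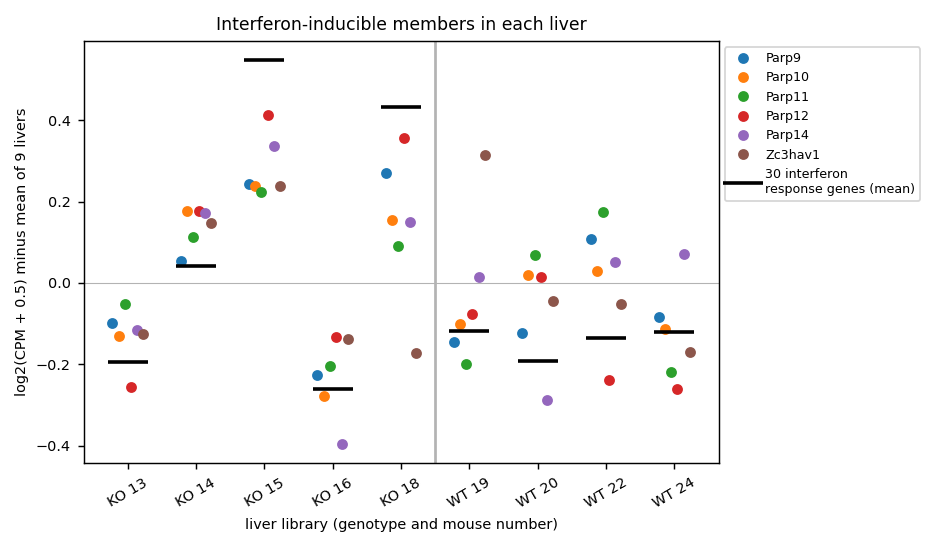
Log2(CPM + 0.5) of the 6 interferon-inducible members in each liver after subtracting the mean of the 9 livers, with a black bar for the mean of 30 other interferon response genes and knockouts left of wild types. Knockouts 15 and 18 carry the highest bars, at 0.55 and 0.43, and most of the 6 members lie above 0 there. Knockout 14 lies above 0 for all 6 as well, although its sum over the 30 genes was near those of the wild types. Knockouts 13 and 16 lie below 0 for all 6.

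The remaining members in liver were close to wild type or too variable to place. Tiparp held 10.2, 8.55, 4.72, 5.48 and 4.55 CPM in knockouts and 5.21, 4.27, 7.19 and 9.82 CPM in wild types, more than a 2-fold spread within each group, and the log2 fold change of 0.02 had a 95% interval from -0.63 to 0.68. Parp8, at 0.646 to 1.79 CPM in knockouts and 0.845 to 1.97 CPM in wild types, had the widest interval of all, -0.98 to 0.65, around a log2 fold change of -0.17 that was 0.06 without the library labelled wild-type 24. Parp16, a transferase of the endoplasmic reticulum membrane, held 35.6, 40.5, 36.6, 35.8 and 19.1 CPM in knockouts and 48.1, 34.5, 28.3 and 36.4 CPM in wild types, and the lowest value was in knockout 18. Its log2 fold change of -0.13 was 0.02 without that mouse and 0.02 without mouse 19, the highest wild type. Parp1 held 40.5, 42.8, 36.8, 37.2 and 37.1 CPM in knockouts and 37.9, 38.2, 40.6 and 41.1 CPM in wild types, with a log2 fold change of -0.02 (95% interval -0.21 to 0.18). Poly-ADP-ribosylating enzymes as a group had 2 positive and 2 negative values.

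All 4 nuclear and cytosolic sirtuins had a negative log2 fold change in liver, also when scaled to library totals, and none passed the test, but the signs of Sirt1 and Sirt2 turned when single mice were left out. The values were -0.06 for Sirt1, -0.03 for Sirt2, -0.15 for Sirt6, a chromatin deacylase, and -0.08 for Sirt7. Sirt1 held 17.7, 14.3, 11.6, 15.1 and 14.2 CPM in knockouts and 17.4, 12.8, 15.97 and 14.9 CPM in wild types. Knockout 15 was the lowest and knockout 13 the highest of all livers. Of the mitochondrial sirtuins, Sirt3 held 125, 127, 130.5, 124 and 137 CPM in knockouts and 138, 143, 124 and 86.3 CPM in wild types, and the library labelled wild-type 24 was the lowest by a wide margin. Its log2 fold change was 0.07 (95% interval -0.21 to 0.35), or -0.06 without that library, and 12.7% of its exon bases lie under exons of Psmd13 or Ric8a on the opposite strand. Sirt4 and Sirt5, which removes succinyl groups, were at -0.08 and 0.12, with Sirt5 at -0.01 without the library labelled wild-type 24.

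The knockout effect did not differ detectably between the tissues for any member. In 1 fit of all 19 libraries, the liver effect minus the kidney effect was called for 0 of 35 members and 0 of 18549 genes, or 0% (edgeR), and at an unadjusted p under 0.05 there were 1 member and 765 genes or 4.12%. DESeq2 called 8 genes and limma voom 1, with 0 members in each. That member was Macrod2, with a difference of 0.40 (SE 0.154, 95% interval 0.08 to 0.72, edgeR adjusted p = 1). Parp12 (0.29, 95% interval -0.04 to 0.62) and Art4 (0.45, 95% interval -0.12 to 1.01) came next. The 95% interval of the difference lay inside 1.5-fold for 25 members and inside 2-fold for all but Art4.

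The genes around these members were likewise uncalled by edgeR in the knockouts. Of the partners of ADP-ribosylation, which include H2afy, its paralog H2afy2, the serine-targeting cofactor Hpf1 and the deltex ligases, 19 were tested in kidney (8 positive, 11 negative) and 20 in liver (9 positive, 11 negative), with 0 called. After H2afy, the smallest p belonged to Dtx3 in kidney (log2 fold change 0.25, SE 0.124, edgeR adjusted p = 0.999) and to Art2b in liver (1.20, SE 0.486, edgeR adjusted p = 1). Of 14 genes of NAD supply and use, 8 were positive and 6 negative in each tissue. The NAD salvage enzyme Nampt was at 0.39 in liver, again as a log2 fold change (SE 0.155, edgeR adjusted p = 1). Of the aryl hydrocarbon receptor targets, which share their regulator with Tiparp, 5 were tested in kidney (2 positive, 3 negative) and 4 in liver (4 positive), with Nqo1, a quinone reductase, at 0.38 in liver (SE 0.169). Substrates of mitochondrial sirtuins had 1 positive and 9 negative values in kidney (median -0.08) and 5 positive and 7 negative in liver (median -0.01), with 0 called.

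Most members passed the test between the tissues, as did most genes. In wild-type mice 26 of the 35, or 74.3%, passed the test of kidney over liver, 11 higher in kidney and 15 higher in liver, against 13148 of 17428 genes or 75.4% (41.6% higher in kidney and 33.9% in liver). At least a 2-fold difference was found for 8 members (22.9%), 3 higher in kidney and 5 in liver, against 46% of genes, 29.2% higher in kidney and 16.8% in liver. Scaling decides much of the split: with library totals in place of TMM the median of all genes moved to 1.03, against 0.14 with TMM, and 24 members (68.6%) were called higher in kidney and 5 (14.3%) in liver, against 71.9% and 13.4% of genes. In knockout mice 22 of 35, or 62.9%, passed with TMM, 8 higher in kidney and 14 in liver, against 12411 of 16823 genes or 73.8% (39.8% and 33.9%), and 10 (28.6%) by at least 2-fold, 3 higher in kidney and 7 in liver, against 46.2% of genes (28.2% higher in kidney and 18.1% in liver). With library totals 23 knockout members (65.7%) were called higher in kidney and 4 (11.4%) in liver, against 70.9% and 13.01% of genes. Of the calls, 21 were shared between the genotypes in the same direction, or 95.5% of the knockout list and 80.8% of the wild-type list, and 0 were opposite. Over all genes the shared calls were 92.9% of the knockout list and 87.7% of the wild-type list, and 3 were opposite.

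Called higher in kidney in both genotypes and under every scaling were 8 members, namely Tnks, Tnks2, Parp8, Tiparp, Parp11, Macrod2, Sirt1 and Sirt6. No count of all genes was made under this rule, so the number has no background. With TMM alone 41.6% of all genes in wild types and 39.8% in knockouts were called higher in kidney. Macrod2 had the largest difference. Set beside the kidney and liver values above, its log2 fold change of kidney over liver was 4.19 in knockouts (SE 0.127) and 4.59 in wild types (SE 0.109, adjusted p = 2.03e-14, edgeR quasi-likelihood test). Parp8 reached 4.06 in knockouts (SE 0.231) and 3.75 in wild types (SE 0.211, edgeR adjusted p = 4.48e-10). Its kidney values ran from 17.7 to 22.8 CPM in knockouts and from 15.97 to 21.2 CPM in wild types, while no liver exceeded 1.97 CPM. Tiparp held 19.9, 16.7, 19.8, 20.9 and 17.5 CPM in knockout kidneys and 17.04, 19.8, 21.03, 17.3 and 23.2 CPM in wild-type kidneys, all above the livers, with log2 fold changes of 1.49 in knockouts (SE 0.21) and 1.57 in wild types (SE 0.202). Art4 passed with TMM in wild types (0.77, edgeR adjusted p = 0.00119) and not in knockouts (0.31, edgeR adjusted p = 0.172), and its kidney values were 5.29, 4.996, 5.43, 5.62 and 3.92 CPM in knockouts and 4.97, 5.16, 5.66, 6.47 and 4.41 CPM in wild types. The difference between genotypes is the interaction given above for Art4 and did not pass.

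Called higher in liver in both genotypes and under every scaling were 4 members, Parp16, Parp9, Parp12 and Zc3hav1. Here too no count of all genes was made under the rule. With TMM alone 33.9% of all genes in each genotype were called higher in liver. Parp9 (ENSMUSG00000022906, chromosome 16, 35938470 to 35972605, plus strand, GRCm38) held 13.2, 12.6, 13.1, 12.5 and 10.97 CPM in knockout kidneys and 12.7, 12.8, 13.4, 13.3 and 13.3 CPM in wild-type kidneys, all far below the livers. The log2 fold change of kidney over liver was -2.03 in knockouts (SE 0.116) and -1.83 in wild types (SE 0.0817, edgeR adjusted p = 3.00e-11). Zc3hav1 held 16.6, 17.4, 16.8, 16.9 and 14.2 CPM in knockout kidneys and 15.3, 17.3, 17.5, 17.3 and 16.6 CPM in wild-type kidneys, with -1.82 in knockouts (SE 0.11) and -1.81 in wild types (SE 0.101). No kidney reached the lowest liver. Parp16 held 12.8, 12.6, 9.57, 12.2 and 13.1 CPM in knockout kidneys and 12.9, 11.1, 13.2, 13.8 and 11.9 CPM in wild-type kidneys, with -1.48 in knockouts (SE 0.176) and -1.55 in wild types (SE 0.133). Parp12 held 16.98, 17.2, 18.3, 16.4 and 16.1 CPM in knockout kidneys and 17.7, 17.5, 18.03, 16.1 and 16.7 CPM in wild-type kidneys, with -1.47 in knockouts (SE 0.129) and -1.17 in wild types (SE 0.0856). Here too the tissues did not overlap. Parp14 held 17.3, 11.9, 16.97, 13.1 and 15.5 CPM in knockout kidneys and 11.4, 12.5, 13.7, 16.9 and 13.4 CPM in wild-type kidneys, with -1.17 in knockouts and -1.22 in wild types, but with library totals the knockout value was -0.24 and no longer passed (edgeR adjusted p = 0.152).

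**Figure D5:**
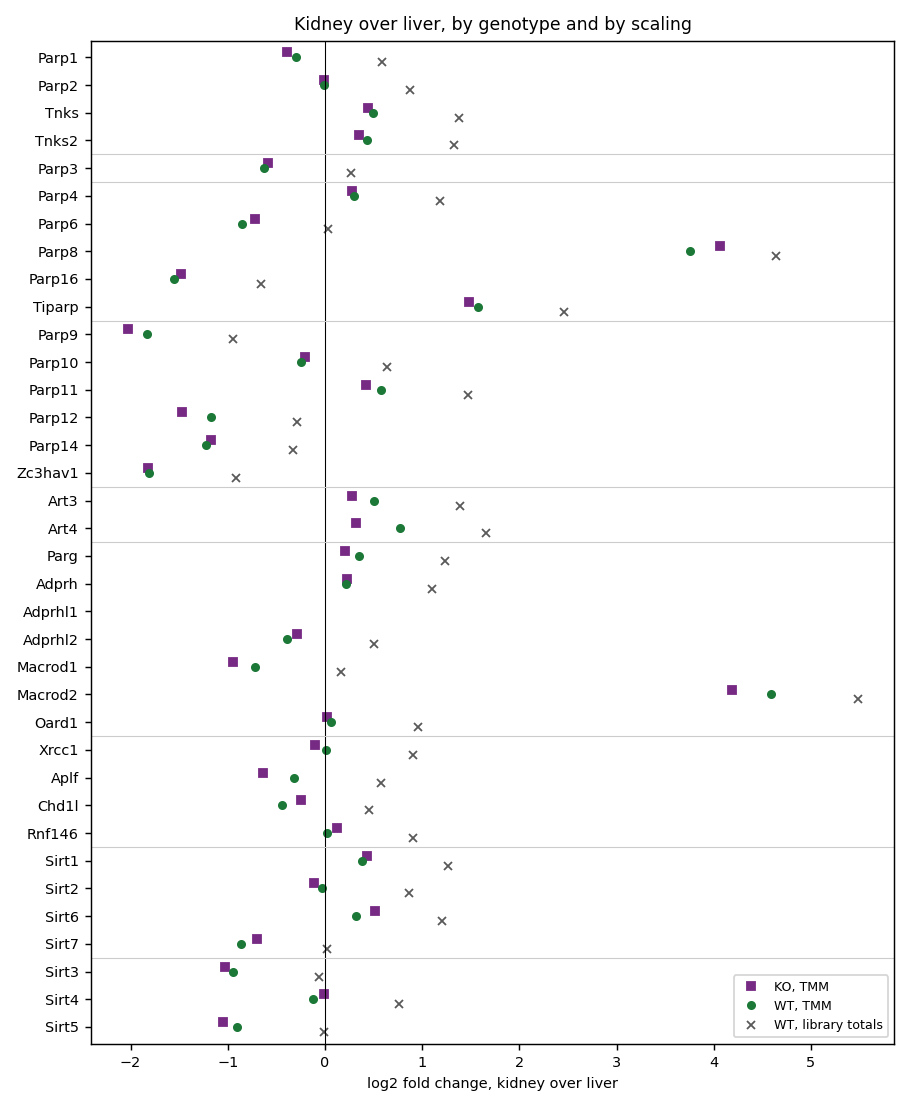
Log2 fold change of kidney over liver for 35 genes, in knockouts (purple squares) and wild types (green circles) after TMM scaling, and in wild types scaled to library totals (grey crosses). Macrod2 and Parp8 lie between 3.75 and 4.59 with TMM, Parp9 and Zc3hav1 between -2.03 and -1.81, and the crosses are shifted to the right for every gene, with a median over all genes of 1.03 against 0.14.

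The interferon-inducible members were split. Parp9, Parp12, Parp14 and Zc3hav1 were at least 2-fold higher in liver with TMM in both genotypes, and Parp11 was higher in kidney, at 0.42 in knockouts and 0.58 in wild types. Parp10 was called higher in liver in wild types with TMM (-0.25, edgeR adjusted p = 0.0476), not called in knockouts (-0.20), and called higher in kidney with library totals in both. The 30 other interferon response genes had 5 called higher in kidney and 23 in liver in wild types, with a median of -1.22. Over all genes 41.6% were called higher in kidney and 33.9% in liver, with a median of 0.14. Dtx3l, the partner of Parp9, was at -2.08 (SE 0.142, edgeR adjusted p = 5.11e-09). Macrophage and Kupffer cell markers summed to 76.5 to 94.3 CPM in knockout and 82.5 to 99.9 CPM in wild-type kidneys, against 198 to 286 CPM in knockout and 233 to 321 CPM in wild-type livers, and the Kupffer cell gene Clec4f reached at most 0.0698 CPM in a kidney. Of the 5 macrophage and Kupffer cell markers, 4 were called higher in liver and 1 higher in kidney with TMM in each genotype. The part of these cells in the tissue differences was not tested.

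The sirtuins also took different sides. With TMM the mitochondrial Sirt3 and Sirt5 were higher in liver in both genotypes, at -1.02 and -1.05 in knockouts and -0.95 and -0.90 in wild types, as was Sirt7 at -0.70 in knockouts and -0.87 in wild types. Scaled to library totals, Sirt3 was at -0.09 in knockouts and -0.06 in wild types, Sirt5 at -0.11 and -0.01, and Sirt7 at 0.24 and 0.02, and none of these passed. Sirt3 held 66.2, 68.8, 58.5, 68.3 and 56.7 CPM in knockout kidneys and 64.6, 65.1, 62.8, 64.9 and 61.5 CPM in wild-type kidneys, all below the lowest liver. Sirt1 was higher in kidney at 0.43 in knockouts and 0.38 in wild types. Sirt6 was higher in kidney at 0.51 in knockouts and 0.31 in wild types. Sirt2 and Sirt4 were not called with TMM in either genotype.

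The direction of Parp1 depended on the scaling. With TMM it was called higher in liver, at -0.39 in knockouts and -0.30 in wild types, and with library totals higher in kidney, at 0.54 in knockouts and 0.59 in wild types. The eraser Adprhl2 turned in the same way in both genotypes, and Parp10 and Chd1l in wild types. Of the 15 liver calls in wild types, 4 turned to kidney with library totals, 6 were lost and 5 stayed; of the 14 in knockouts, 2 turned, 8 were lost and 4 stayed. The genes around the members were mixed too. Of the 19 partners tested in wild types 5 were called higher in kidney and 9 in liver, led by Dtx3, a deltex ligase, at 2.55 (SE 0.0843, edgeR adjusted p = 8.66e-13). Over all genes 75.4% were called in wild types, 41.6% higher in kidney and 33.9% in liver. Of the 15 NAD genes tested 5 were higher in kidney, among them Nampt at 1.36 and the NAD glycohydrolase family gene Bst1 at 4.58. In liver 8 were higher, among them Naprt, the nicotinate salvage enzyme, at -2.42 and Qprt, of the route from tryptophan, at -2.20.

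Spread between libraries of a group was small for most members. The coefficient of variation of CPM had a median over members of 10.4% in knockout kidneys, 8.8% in wild-type kidneys, 14.6% in knockout livers and 12.4% in wild-type livers. It reached 40.2% in knockout kidneys, for Art3, and 40.4% in wild-type livers, for Parp8. On chromosome 13, which carries H2afy, lie Sirt5, 12.7 Mb from it, and Parp8, 60.7 Mb from it, and neither passed the test in either tissue.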

How the data were processed

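Messenger RNA libraries of kidney and liver were sequenced after poly(A) selection, per the labels' protocols. The authors deposited 1 table of raw counts per gene, without normalization, and the submitters' processing notes name Trim Galore, STAR, featureCounts, DESeq2 and the build GRCm38 without versions. No source used here gives the strand setting. Of 26506 gene identifiers, 26417 were matched to GENCODE mouse release M21, which gave symbols, positions and merged exon lengths, and 89 were not. Groups came from the genotype and tissue labels.

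Counts were tested in R 4.3.3 with edgeR 4.0.16 and its quasi-likelihood F test (robust dispersion, TMM scaling, filterByExpr with a minimum count of 10), within each tissue for knockout over wild type, within each genotype for kidney over liver, and in 1 fit of all libraries for the difference of knockout effects. Two-sided p-values were adjusted by the method of Benjamini and Hochberg over all genes tested, at 0.05. Levels are CPM after TMM over all 19 libraries. The number in a title was taken as the mouse. The fits were tested on simulated data. Alternatives were DESeq2 1.42.0, limma voom 3.58.1 with sample weights, other scalings and filters, 1 fit of all libraries, a block for the mouse, leaving out each mouse, and leaving out mice 16 and 24 together, a fit taken over from an earlier analysis that chose it with its results known.

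The members and the lists of related genes and markers were chosen with earlier results of these data known. Values by library were given, by rule, for the members with the smallest p in each knockout comparison (4 per tissue, 3 for the difference). The rule also took the 4 most different in each direction between wild-type tissues among those called. It further took the interferon-inducible members, and Tiparp, Parp1, Sirt1 and Sirt3. For Parp8, Parp6 and Sirt2 the libraries printed were those of kidney only, and for Macrod1 and Parp11 those of liver only. From each related list, genes were named that passed or had the smallest p. Genes other than these, and further members with means or fold changes, were named after their values were seen. Promoter windows are RefSeq sequences of GRCm38.p6, searched for the motifs as spelled.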

Additional observations from a re-analysis of the deposited data

Results flagged for a closer look

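Of 140 sets of libraries (35 genes in 4 groups), 7 held a value far from the others of its group by Dixon's criterion, and chance gives about 1 in 20, or 7. In knockout kidneys Parp16 was 9.57 CPM in mouse 15, against 12.2 to 13.1 CPM in the other 4, and Zc3hav1 was 14.2 CPM in mouse 18, against 16.6 to 17.4 CPM. In wild-type kidneys Sirt5 was 8.95 CPM in mouse 23, against 10.7 to 11.3 CPM. In knockout livers mouse 18 was lowest for Parp16, at 19.1 CPM against 35.6 to 40.5 CPM, and for Sirt6, at 4.06 CPM against 6.09 to 6.90 CPM, and mouse 14 was highest for Parp2, at 12.3 CPM against 9.29 to 10.1 CPM. In wild-type livers Parg was 15.4 CPM in mouse 19, against 14.88 to 14.97 CPM in the other 3, a narrow range in which a small step stood out. No test called any of these genes between knockouts and wild types, and leaving out each mouse in turn called no member.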

How the results depend on the processing

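No member was called between knockouts and wild types, or for the difference between tissues, under any alternative run. The smallest adjusted p of any member in kidney was 0.878 with edgeR, for Parp1 without replicate 13, and Parp6 and Parp10 reached the same value. With edgeR it was 0.368 in liver (Macrod2, all 19 libraries in 1 fit) and 0.755 for the difference (Macrod2, without replicate 14). Counts over all genes moved, with 1 called in kidney and 0 in liver and for the difference as reported. In kidney they were 15 with DESeq2, 7 with limma voom, 4 without a filter, 12 without mice 16 and 24, 3 with all libraries in 1 fit, and 1 to 10 when a mouse was left out. In liver they were 42, 5, 3, 11 and 21 in the same order, and 0 to 7 when a mouse was left out. For the difference they were 8 with DESeq2, 1 with limma voom, 4 without mice 16 and 24, and 0 to 3 when a mouse was left out. The cause of these moves was not tested.

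Signs turned under at least 1 alternative for 21 of 35 members in kidney, 16 in liver and 15 for the difference. In kidney their log2 fold changes as reported were at most 0.08 in size. In liver 4 exceeded 0.1: Parp8 (0.059 without the library labelled wild-type 24, 0.18 without mice 16 and 24), Parp16 (0.021 without mouse 18, 0.022 without mouse 19), Tnks (-0.015 without mouse 13) and Sirt5 (-0.0057 without the library labelled wild-type 24). For the difference 2 did: Aplf (0.31, and -0.0077 without mouse 18) and Parp8 (-0.32, and 0.042 without mice 16 and 24). In kidney Parp12 was 0.016 with library totals, Sirt1 was 0.0081 with limma voom, 0.023 with library totals and 0.00023 with a filter of 1 CPM, and Sirt3 was -0.0032 without a filter, -0.032 without mice 16 and 24 and -0.0019 in 1 fit. In liver, without mice 16 and 24, Parp1 was 0.017 and Sirt3 -0.053. Leaving out mice in turn gave in kidney -0.12 to 0.0017 for Parp11, -0.034 to 0.0073 for Parp12, -0.060 to 0.011 for Zc3hav1, -0.089 to 0.022 for Tiparp, -0.032 to 0.044 for Sirt1 and -0.023 to 0.038 for Sirt3. In liver it gave -0.082 to 0.086 for Zc3hav1, -0.18 to 0.27 for Tiparp, -0.061 to 0.0051 for Parp1, -0.15 to 0.014 for Sirt1 and -0.064 to 0.15 for Sirt3.

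Library totals moved the tissue split. Members called higher in kidney and in liver were 24 and 5 in wild types, 13 and 0 of them by at least 2-fold, and 23 and 4 in knockouts, 14 and 1 of them by at least 2-fold. Over all genes, 10298 of 17428 in wild types and 10023 of 16823 in knockouts were then called by at least 2-fold in either direction. In knockouts Art4 then passed, at 1.25, and Parp14 did not, at -0.24. Macrod2 in liver was the 1 member whose knockout and wild-type ranges then parted, and no such count was made over all genes.

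No paired analysis was possible within a tissue because knockouts and wild types share no mouse number. Between tissues, a kidney and a liver with 1 number deviated together at r of 0.0923 to 0.457 over 9 pairs, 7 of them over 0.1, and 6 kidneys correlated best with their own number; with different numbers r ran from -0.382 to 0.31. With the replicate block, 24 of 35 members were called in wild types (9 higher in kidney, 15 in liver), against 12779 of 16878 genes (6961 and 5818). In knockouts 23 of 35 were called (9 and 14), against 12632 of 16823 genes (6852 and 5780). For the difference 0 members and 0 of 18377 genes were called. Counting error, taken as that of the mean count, was over 50% of the coefficient of variation for 8 of 35 members in knockout livers, 13 in wild-type livers and 11 in each group of kidneys. For Macrod2 in liver, with 82 to 142 counts, it was 9.11% against a variation of 11.3% in knockouts and 10.6% against 11.9% in wild types. The part of depth in the Macrod2 result was not tested.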

Other observations

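The extremes of the 35 tested genes were unevenly spread over the libraries. Extremes of all genes were not counted, so the numbers below have no background and may not be particular to these genes. Knockout kidney 18 was the highest of the 10 kidneys for 8 genes and the lowest for 10, and knockout kidney 13 was the highest for 6 and the lowest for 8, where an even share is 3.5. Among the 9 livers, where an even share is 3.89, knockout 18 was the highest for 7 and the lowest for 7, knockout 13 the highest for 7 and knockout 16 the lowest for 7. Deviations of the 35 genes from their tissue mean followed merged exon length in some libraries, with a Spearman rho across genes of 0.538 in knockout kidney 13, -0.451 in wild-type liver 20 and 0.47 in the kidney labelled wild-type 24, against 0.381, -0.18 and 0.196 over all genes; genes are not independent replicates. Knockout kidney 13 was the highest kidney for Macrod2, Parg, Parp1, Parp14, Rnf146 and Tnks. It was the lowest for Adprh, Adprhl2, Art3, Macrod1, Oard1, Parp6, Sirt4 and Sirt7. Merged exons ran from 4456 bases (Rnf146) to 14888 (Tnks) in the first list and from 1228 (Macrod1) to 7763 (Parp6) in the second. The part of length in these extremes was not tested. The library labelled wild-type 24 was the lowest liver for 8 genes, among them Macrod1, Parp11, Parp12, Sirt3 and Sirt5, and was also the wild-type liver lowest in H2afy.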
